A study of Mus musculus with 9 samples.

Results

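Short cassette exons, defined as alternative exons of 28 to 51 nt, were taken from the alternative splicing tables of mouse N2A cells by event type and annotated length alone, with no measured value in the choice. The tables listed 3600 such exons in 2815 genes, among 54141 cassette exons of all lengths. At least 10 informative reads in every library of an experiment were found for 2496 of 38144 exons in the first experiment and for 2407 of 36923 in the second, and 2389 short exons passed in both. No reads-based value is given for the 1086 that passed in neither. No 2 of the short exons shared a splice site, so each stands for a separate splicing choice. Inclusion is given throughout as PSI (percent spliced in), which is the share of informative junction reads that include the exon, and differences in PSI are given in percentage points.

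N2A is an established mouse neuroblastoma line. All cells were transfected with siRNA pools and harvested 48 hours later, so the controls carried a non-targeting pool and the transfection itself, and polyA RNA was sequenced. The first experiment had 1 library each for control, for knockdown of Mbnl1 and Mbnl2 together, and for knockdown of Nacc1. The second experiment had 2 libraries each for control, Srrm4 knockdown and Zfp871 knockdown. The line is a single tumour-derived culture model, and the labels do not state whether both libraries of a group stem from independent cultures. P-values therefore measure only the spread between these libraries, which may be technical. The columns of a group carried the letters a and b, and values of the second experiment are given in that order.

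A cassette exon is either joined to its neighbours or skipped as a unit during splicing. Short exons leave little room for the exon-bound proteins that help the spliceosome recognise an exon, and many depend on sequences in the flanking introns. Srrm4 (nSR100) is a neural serine/arginine-rich protein that promotes inclusion of short neuronal exons, including microexons. Mbnl1 and Mbnl2 are zinc finger RNA-binding proteins that bind YGCY motifs and can promote or repress an exon depending on where they bind. Nacc1 is a BTB-domain transcriptional regulator, and Zfp871 is a zinc finger protein.

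The 14 exons on which the comparisons turn are shown here so that their length, frame and sequence can be seen. A search for sequence common to all 14 was not made. Capitals mark the Mbnl motif in DNA letters on the transcribed strand, which is TGCT or else TGCC where it starts with T, and CGCT or else CGCC where it starts with C. Sequences are from GENCODE M21 transcripts, matched by chromosome, strand, exon length and both flanking intron lengths (for Strada, 1 intron and the gene symbol), and coordinates are those of the deposited tables (mm9).
Acbd5, chr2:22936188-22936220, plus strand: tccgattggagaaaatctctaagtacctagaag
Asph, chr4:9564806-9564850, minus strand: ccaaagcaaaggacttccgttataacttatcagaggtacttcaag
Meaf6, chr4:124784761-124784790, plus strand: cccgtctggcatgtttgattatgactttga
Zdhhc20, chr14:58468982-58469017, minus strand: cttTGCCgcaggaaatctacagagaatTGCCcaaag
Epb4.1l1, chr2:156337521-156337556, plus strand: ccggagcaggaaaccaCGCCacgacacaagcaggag
Epb4.1l3, chr17:69623222-69623257, plus strand: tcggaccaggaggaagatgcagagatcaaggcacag
Elmo2, chr2:165129166-165129201, minus strand: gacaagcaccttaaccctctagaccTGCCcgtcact
Arfgap1, chr2:180713117-180713146, plus strand: ttttggggttacaagcagcagtcagagccg
Strada, chr11:106042269-106042297, minus strand: agcagcctccgggtgacactcggagaaaa
Numa1, chr7:109150809-109150850, plus strand: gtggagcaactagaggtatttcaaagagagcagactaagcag
Tbc1d23, chr16:57181605-57181649, minus strand: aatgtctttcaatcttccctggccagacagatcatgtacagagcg
Uap1, chr1:172078127-172078174, minus strand: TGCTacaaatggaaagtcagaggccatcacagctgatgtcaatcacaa
Cadm1, chr9:47637460-47637492, plus strand: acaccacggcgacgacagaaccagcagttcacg
Spag9, chr11:93974577-93974615, plus strand: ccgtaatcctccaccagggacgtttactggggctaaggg

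All 14 lie in coding sequence, and all but the 29-nt Strada exon have a length divisible by 3. The first 6 were lower than control in both knockdowns of the second experiment, and the next 8 were chosen for their values in the first experiment or for differences between the knockdowns. The 36-nt exons of the related genes Epb4.1l1 and Epb4.1l3 are identical at 17 of 36 positions (47.2%).

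Depth was similar across libraries, with 50086176 to 63715449 gene counts per library in the first experiment and 44186088 to 61159670 in the second. Short exons received 580553 to 862423 informative reads per library, with a median of 129 to 174 reads per usable exon. The targeted transcripts were lower in their own knockdown: Mbnl1 stood at 45.2 CPM against 124 in control, Mbnl2 at 18.2 against 65.7 and Nacc1 at 52 against 208 (CPM are gene counts scaled to library size; 1 library each). Srrm4 stood at 28.3 and 26 CPM in its knockdown against 66.9 and 96.1 in control (log2 fold change -1.59 ± 0.192 SE, adjusted p = 0.0222, edgeR quasi-likelihood test), and Zfp871 at 7.24 and 5.1 CPM against 17.6 and 26.1 (-1.84 ± 0.246 SE, adjusted p = 0.0271). With single libraries left out, the Srrm4 difference ranged from -1.83 to -1.3 and missed the threshold without control b, Srrm4 b or either Zfp871 library (adjusted p of 0.0818, 0.152, 0.0777 and 0.0815). That of Zfp871 ranged from -2.1 to -1.52 and missed it without control b or either Zfp871 library (0.0983, 0.114 and 0.247). With the library letter as a block the adjusted p was 1.06e-08 for Srrm4 and 1.17e-07 for Zfp871. All 11 neuronal and sympathetic markers were at 1 CPM or more in every library, with summed levels of 3020 to 3160 CPM in the first experiment. In the second these summed to 4070 and 3700 CPM in control, 3300 and 3270 after Srrm4 knockdown and 3290 and 3310 after Zfp871 knockdown. Dbh, the enzyme that makes noradrenaline, was at 111 and 72.5 CPM in control, 78.3 and 58.8 after Srrm4 knockdown and 23.1 and 16 after Zfp871 knockdown, and Phox2a, a sympathetic transcription factor, at 259 and 205, 159 and 138, and 104 and 72.1 CPM. Glial markers summed to 4.24 to 7.72 CPM and immune markers to 0.282 to 1.55 CPM, with Aqp4, Sox10, Olig1, Aif1 and Ptprc under 0.1 CPM in every library. The mesenchymal list summed to 234 to 585 CPM, nearly all from Fn1, with Col3a1 and Lum under 0.1 CPM, and it was lowest in the Zfp871 knockdown (267 and 234 CPM against 542 and 585 in control). The part of these marker levels in the exon results was not tested, and in bulk RNA fewer cells of a type and less RNA per cell cannot be told apart.

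Short exons were less often fully included in control cells than cassette exons as a whole. In the control of the second experiment, 55.6% of 2407 short exons had a PSI over 90%, against 70.4% of all lengths. Intermediate inclusion, from 10 to 90%, was seen for 17.2% of short exons and 11.9% of all lengths, and inclusion under 10% for 27.1% and 17.8%. The control of the first experiment gave 55.4, 18.3 and 26.2% for the same classes. The controls of the 2 experiments differed by a median of 0.81 points over 2389 short exons, and by 5.03 points over the 412 with intermediate inclusion. That was close to the 4.97 points between control libraries a and b over the same 412 exons.

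**Figure D1:**
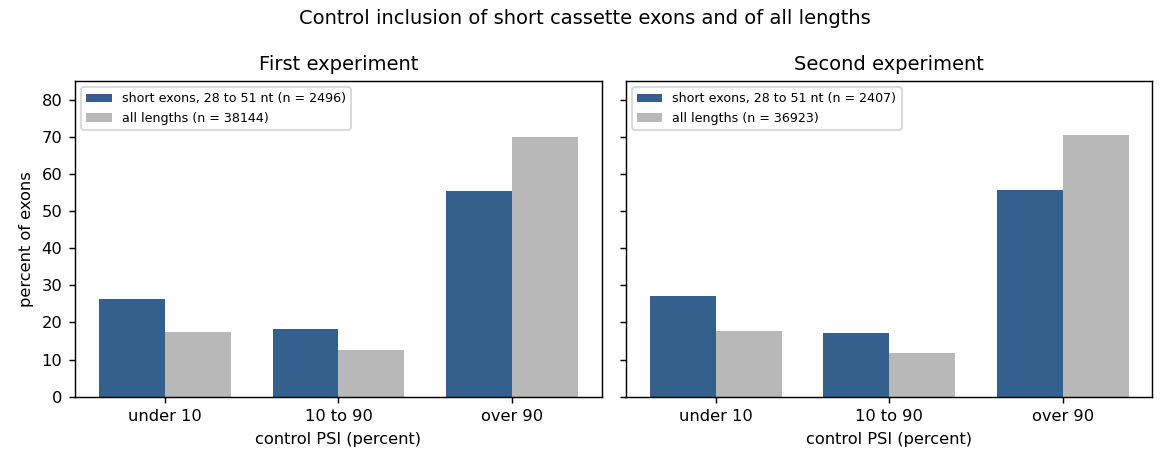
Share of exons (percent) with control PSI under 10, from 10 to 90 and over 90, in the first (left) and second (right) experiment; blue bars are short exons and grey bars all cassette exons with 10 or more reads in every library. Short exons have the lower bar over 90 and the higher bars in the other classes in both experiments.

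Frame was read from the exon lengths and position from the GENCODE M21 match. Of the 3600 short exons, 49.5% had a length divisible by 3. That share was 61.0% among 415 exons with a control PSI from 10 to 90, 42.5% among 1339 exons over 90 and 53.1% among 653 exons under 10, while for all lengths with intermediate inclusion it was 48.8%. GENCODE M21 held 2891 (80.3%) of the short exons. Of these, 2297 (79.5%) were coding, 173 lay in a 5′ UTR and 8 in a 3′ UTR, 116 held a start or stop codon, 106 occurred in transcripts annotated for nonsense-mediated decay alone and 191 in non-coding transcripts alone. The median flanking introns of short exons tested in the second experiment were 1749 nt upstream and 1976 nt downstream.

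The second experiment was tested over 20266 cassette exons of all lengths with a PSI from 2 to 98% in at least 1 library, of which 1516, in 1275 genes, were short. With edgeR's quasi-likelihood test on inclusion and exclusion reads, no short exon passed an adjusted p of 0.05 with 10 points or more in the Srrm4 knockdown (0.0% of all lengths), the Zfp871 knockdown (0.0%) or between the knockdowns (0.0%). At an unadjusted p under 0.05 the same test held 100 short exons for Srrm4 (5.14% of all lengths), 97 for Zfp871 (4.34%) and 75 for Zfp871 against Srrm4 (4.79%). Tests that treat the spread differently gave other counts. In the Srrm4 knockdown, limma on logit PSI called 16 short exons, all lower (0.37% of all lengths lower), DESeq2 15 lower (0.429%), the quasi-likelihood test with an abundance trend 5 lower (0.123%), and edgeR's likelihood ratio test 35 lower (1.12%) and 7 higher (0.271%). In the Zfp871 knockdown the likelihood ratio test called 31 short exons lower (0.819%) and 3 higher (0.0938%), limma called 0, and DESeq2 called 0 (0.0247% of all lengths lower). Between Zfp871 and Srrm4 knockdowns the likelihood ratio test called 15 short exons lower (0.444%) and 9 higher (0.39%), and limma and DESeq2 called 0 (DESeq2 0.00987% of all lengths higher). The likelihood ratio counts rested in part on single libraries: without Zfp871 library b they were 17 for Zfp871 and 10 between the knockdowns, where they were 11 without Srrm4 library b. Because the main test called none, the exons below are described by their values in every library, with these p-values beside them.

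As a description, an exon was counted where both knockdown libraries lay on one side of both control libraries and the means differed by 10 points or more. In the Srrm4 knockdown 68 short exons were lower (4.49% of 1516, against 2.6% of all lengths) and 35 higher (2.31% against 1.88%). For Zfp871 the counts were 90 lower (5.94% against 2.9%) and 23 higher (1.52% against 1.16%). The median difference over all 1516 short exons was -0.02 points for Srrm4 and -0.48 for Zfp871, against 0 and -0.27 over all lengths. The Zfp871 median was -0.12 without Zfp871 library b, -0.17 without control a and -0.78 without control b, and the Srrm4 median was -0.21 without control b. Libraries a and b of a group differed by a median of 2.0 points in control, 1.84 in the Srrm4 and 2.02 in the Zfp871 knockdown, and by 4.98, 4.08 and 4.76 points over the 415 exons with intermediate control PSI.

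Within the 28 to 51 nt range, the share of exons lower after knockdown was larger for the shorter exons. In the Srrm4 knockdown it was 12.8% at 28 to 30 nt, 8.48% at 31 to 36, 3.54% at 37 to 42, 2.58% at 43 to 48 and 1.77% at 49 to 51 nt. Just outside the range it was 18.8% at 25 to 27 nt and 2.52% at 52 to 54 nt. The Zfp871 knockdown gave 12.8, 9.89, 6.49, 4.18 and 1.77% over the same 5 bins. Median reads per exon, 117 to 127 in each bin, did not follow length, but the share of exons with intermediate control PSI ranged from 31.2% at 28 to 30 nt and 37.8% at 31 to 36 nt to 18.4% at 49 to 51 nt. Among exons with intermediate control PSI alone, the lower share for Srrm4 still went from 38.2% (13 of 34) at 28 to 30 nt to 19.6, 12.5, 8.7 and 7.7% in the longer bins. For Zfp871 it went from 35.3% to 24.3, 19.8, 11.9 and 9.6%. Over the whole short class these shares were 14.7% for Srrm4 and 18.6% for Zfp871, below the 49.2 and 47.0% of 16 to 27 nt exons and above the 9.0 and 10.3% of all lengths.

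**Figure D2:**
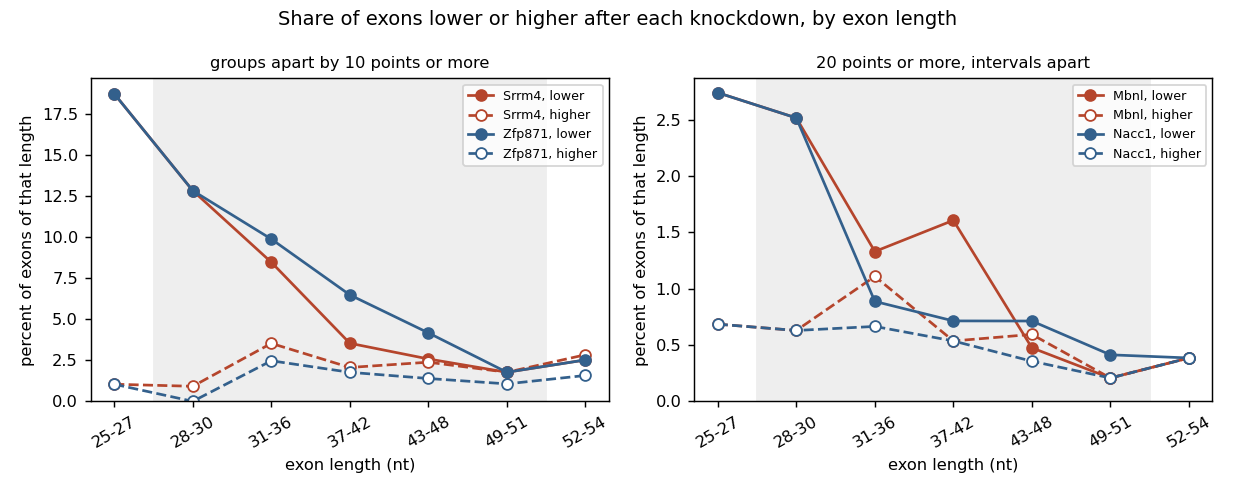
Percent of exons lower (filled) or higher (open) than control, by exon length bin in nt; left, the second experiment (groups apart by 10 points or more); right, the first experiment (20 points or more with 95% intervals apart, 1 library each); grey marks the short class. The lower share falls from 12.8% at 28 to 30 nt to 1.77% at 49 to 51 nt for both Srrm4 and Zfp871, while the higher share stays under 4%.

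The short exons with the widest differences after Srrm4 knockdown were all lower than control, and were lower to a smaller degree after Zfp871 knockdown. Acbd5, a peroxisomal membrane protein that tethers peroxisomes to the endoplasmic reticulum, had its 33-nt exon at 63.2 and 64.9% in control, 18.9 and 18.9% after Srrm4 knockdown and 40.7 and 36.3% after Zfp871 knockdown. The 3 groups did not overlap, with Zfp871 between the others. The Srrm4 difference of -45.2 points had an adjusted p of 0.13 in edgeR's quasi-likelihood test and 0.0109 in limma. Meaf6, a subunit of histone acetyltransferase complexes, had its 30-nt exon at 58.6 and 66.2% in control, 22.4 and 19.6% after Srrm4 knockdown and 36.8 and 34.7% after Zfp871 knockdown. Again the 3 groups were apart and in the same order (Srrm4 difference -41.4 points, limma adjusted p = 0.0187). Asph, which encodes an aspartyl hydroxylase of the endoplasmic reticulum, had its 45-nt exon at 58.5 and 73.7% in control, 22.3 and 22.3% after Srrm4 knockdown and 39 and 33.7% after Zfp871 knockdown. Its control libraries differed from each other, but both lay above all 4 knockdown libraries (Srrm4 difference -43.8 points, limma adjusted p = 0.0294). In Zdhhc20, a palmitoyltransferase, the 36-nt exon stood at 39 and 44.7% in control, 4.83 and 5.56% after Srrm4 knockdown and 14.3 and 8.57% after Zfp871 knockdown. Both knockdowns lay far below control, with the Srrm4 libraries lowest (-36.7 points, limma adjusted p = 0.0116).

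Epb4.1l1 and Epb4.1l3 encode band 4.1 proteins, which tie the spectrin-actin network to the membrane. The 36-nt exon of Epb4.1l1, with 1003 reads or more in every library of the second experiment, stood at 75.3 and 76.7% in control, 40.7 and 42.2% after Srrm4 knockdown and 55 and 57.1% after Zfp871 knockdown. Libraries of a group agreed within 3 points and the groups were apart by more than 10. Its Srrm4 difference of -34.5 points had an adjusted p of 0.229 in the quasi-likelihood test, 0.0277 with an abundance trend and 0.0327 in limma. The 36-nt exon of Epb4.1l3 stood at 48.4 and 47.8% in control, 15.9 and 14.3% after Srrm4 knockdown and 32 and 26.7% after Zfp871 knockdown. Its groups were ordered as those of Epb4.1l1 were (Srrm4 difference -33 points, limma adjusted p = 0.0238). Other genes of the same cytoskeleton were also lower in both knockdowns. Add1, an adducin that caps actin filaments, had its 34-nt exon at 64.2 and 65.6% in control, 43.2 and 41.2% after Srrm4 knockdown and 41.5 and 42.2% after Zfp871 knockdown. The 33-nt exon of Ank3 (ankyrin G) stood at 23.2 and 25.5%, then 10.8 and 9.65%, then 14.6 and 14.4%, with its Zfp871 difference of -9.87 points just short of 10. Over the actin and spectrin list, 4 of 23 tested short exons were lower and 1 higher in the Srrm4 knockdown, and 5 were lower and 2 higher in the Zfp871 knockdown, with list medians of -1.08 and 0 points. Over all 1516 tested short exons, 4.49% were lower and 2.31% higher for Srrm4 and 5.94 and 1.52% for Zfp871, with medians of -0.02 and -0.48 points.

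Adhesion, scaffold and channel genes held 8 lower and 2 higher of 77 short exons in the Srrm4 knockdown and 9 lower and 2 higher in the Zfp871 knockdown, beside 4.49 and 2.31%, and 5.94 and 1.52%, of all tested short exons. The list medians were -0.46 and -0.65 points. Ppfia2, a liprin scaffold of the presynaptic active zone, had its 30-nt exon at 90.1 and 91.4% in control, 65.1 and 48.5% after Srrm4 knockdown and 56.4 and 79.2% after Zfp871 knockdown. Both knockdowns lay below control, but their libraries overlapped each other, and only 24 reads stood behind the shallowest library. Cd47, a surface ligand read by phagocytes, had its 33-nt exon at 70.5 and 76.8% in control, 51.9 and 55.5% after Srrm4 knockdown and 49.4 and 51.3% after Zfp871 knockdown. The 34-nt exon of Dlg1, a membrane scaffold, was nearly always included in control (99.5 and 99.6%) and stood at 87.6 and 85.3% after Srrm4 knockdown and 97.3 and 94.4% after Zfp871 knockdown. Its length is not a multiple of 3, and its difference of -13.1 points had a limma adjusted p of 0.0382. Gpc6, a glypican of the cell surface, had its 30-nt exon at 44.1 and 32.6% in control, 5.61 and 2.47% after Srrm4 knockdown and 9.31 and 12.7% after Zfp871 knockdown (-34.3 points, limma adjusted p = 0.0187). Sgce, the epsilon-sarcoglycan, had its 35-nt exon at 48.9 and 39.9% in control, 14 and 12% after Srrm4 knockdown and 18.4 and 13.6% after Zfp871 knockdown. Both knockdowns were far below control there, and overlapped each other.

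The remaining lists are read against the same shares of all tested short exons, which were 4.49% lower and 2.31% higher for Srrm4 and 5.94 and 1.52% for Zfp871. Endocytosis and vesicle genes had 5 lower and 1 higher of 57 short exons after Srrm4 knockdown and 4 lower and 2 higher after Zfp871 knockdown. The 30-nt exon of Arfgap1, which inactivates the Golgi GTPase Arf1, stood at 57.5 and 66.5% in control, 33.8 and 36.8% after Srrm4 knockdown and 30.1 and 34% after Zfp871 knockdown. Elmo2, a partner of Dock proteins in Rac activation, had its 36-nt exon at 71.7 and 71.5% in control, 44.5 and 31.4% after Srrm4 knockdown and 46.9 and 44% after Zfp871 knockdown. Sh3pxd2a, a scaffold of podosomes, had its 45-nt exon at 65.7 and 58.5%, then 37.1 and 33.3%, then 34.9 and 39.3%. In these 3 genes the knockdowns lay below control and overlapped each other. GTPase regulators had 3 lower and 1 higher of 50 after Srrm4 knockdown and 3 lower and 0 higher after Zfp871 knockdown, led by the 36-nt Dock9 exon, whose 14 reads in the shallowest library make its -41.6 and -40.6 points loose. Microtubule genes had 1 lower and 1 higher of 40, and 3 lower and 0 higher. The lower exon in both was the 33-nt exon of Camsap1l1, which binds microtubule minus ends, at 38.2 and 42.2% in control, 13.9 and 10.5% after Srrm4 knockdown and 13.1 and 17% after Zfp871 knockdown. Chromatin and transcription genes had 3 lower and 3 higher of 77, and 3 lower and 0 higher. The widest were the 39-nt exon of Zfp94 for Srrm4 (56.8 and 57.4% in control, 29.1 and 50.1% after knockdown) and the 48-nt exon of Zfp384 for Zfp871 (64.3 and 56.6% in control, 48.8 and 30.2% after knockdown). Kinases and phosphatases had 3 lower and 1 higher of 71, and 1 lower and 2 higher, so that the kinase and chromatin lists were near the shares of all short exons for Srrm4 and below them for Zfp871 among lower exons. RNA-binding and splicing genes had 3 lower and 2 higher of 57, and 4 lower and 3 higher.

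**Figure D3:**
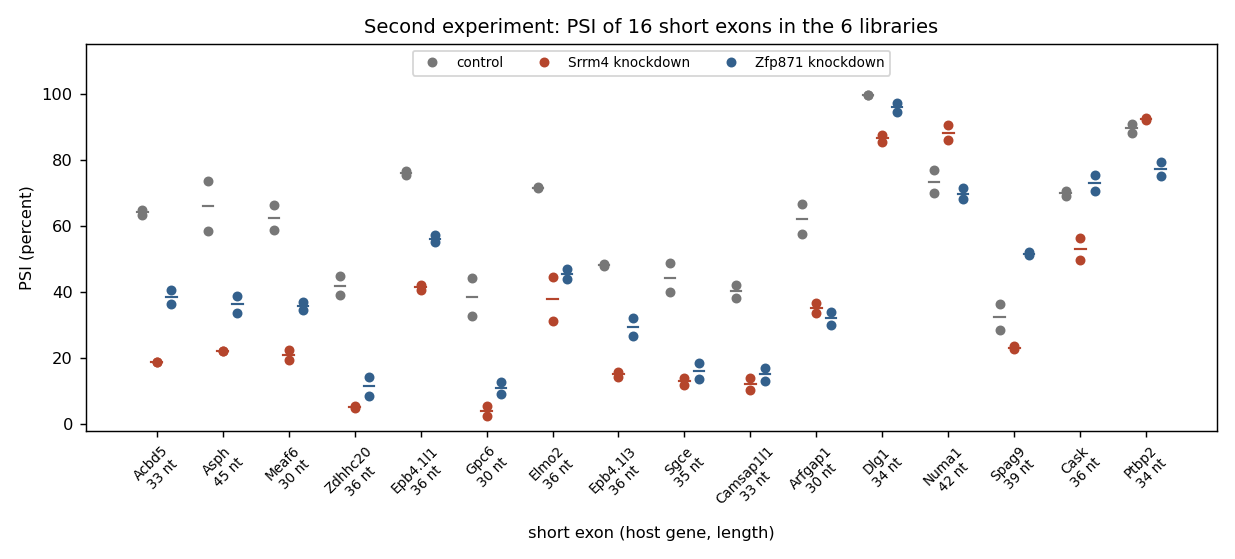
PSI (percent) of 16 short exons in the 6 libraries of the second experiment; points are libraries and horizontal marks group means, in grey for control, red for Srrm4 knockdown and blue for Zfp871 knockdown. From Acbd5 to Dlg1 the control lies highest; Numa1, Spag9, Cask and Ptbp2 at the right show the exons where the knockdowns part.

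Srrm4 and Zfp871 knockdowns share their control libraries, so their differences from it are given side by side and the knockdowns were compared directly. Srrm4 itself was at 45.3 and 53.9 CPM in the Zfp871 knockdown, below its 66.9 and 96.1 CPM in control and above its 28.3 and 26 CPM in its own knockdown (Zfp871 against control log2 fold change -0.73, adjusted p = 0.099). Other splicing regulators also differed, by edgeR's quasi-likelihood test. Only some are described here, and further ones were called lower in each knockdown. Srrm3 fell after Srrm4 knockdown (log2 fold change -0.62, adjusted p = 0.0341), with -0.15 after Zfp871 knockdown (0.466). Rbms3 fell in both (-1.4 and -1.35, adjusted p of 0.0184 and 0.0223). Nova1 fell after Zfp871 knockdown (-0.94, adjusted p = 0.0439), with -0.28 after Srrm4 knockdown (0.334). These calls depended on single libraries. The part of these levels in the exon values was not tested. Exons such as Acbd5, Meaf6, Epb4.1l1 and Epb4.1l3 were 19.6, 14.8, 14.6 and 14.3 points higher in the Zfp871 than in the Srrm4 knockdown, with likelihood ratio adjusted p of 3.61e-06, 0.00884, 4.2e-18 and 8.09e-08. Neither the quasi-likelihood test nor limma called them (limma adjusted p of 0.413, 0.507, 0.565 and 0.455). Add1, Cd47, Arfgap1 and Sh3pxd2a differed between the knockdowns by -0.37, -3.29, -3.2 and 1.89 points.

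Some exons lay apart from each other in the 2 knockdowns. Cask, a membrane-associated kinase-like scaffold, had its 36-nt exon at 69 and 70.6% in control, 56.2 and 49.7% after Srrm4 knockdown and 70.5 and 75.3% after Zfp871 knockdown. Camk2a, a calcium-dependent kinase, had its 33-nt exon at 57 and 51% in control, 52.1 and 54.4% after Srrm4 knockdown and 15.3 and 23.1% after Zfp871 knockdown, from 24 reads or more. Srrm4 libraries overlapped control for Camk2a, and Zfp871 libraries did not overlap any other. Between the knockdowns Cask was 20 points higher and Camk2a 34 points lower with Zfp871 (likelihood ratio adjusted p of 0.000347 and 0.00229, limma 0.478 and 0.413). The 51-nt exon of 4932438A13Rik stood at 62.3 and 60.4% in control, 56 and 40.8% after Srrm4 knockdown and 25.7 and 28.2% after Zfp871 knockdown. The 41-nt exon of BC024814 stood at 79.9 and 63.3%, 67.3 and 64.6%, and 43 and 40.7%, and the 46-nt exon of the homeobox gene Rhox3a at 66.7 and 70%, 77.8 and 54.3%, and 35.7 and 44%, in the same order. For both, the Zfp871 libraries were lowest, from 37 and 17 reads in the shallowest library. The 35-nt exon of Macrod1 stood at 95.5 and 100%, 95.7 and 84.9%, and 57.9 and 77.5% on 13 reads or more. Spag9, a scaffold for JNK kinases and motor proteins, was added after its values were seen. Its 39-nt exon stood at 36.4 and 28.5% in control, 22.7 and 23.7% after Srrm4 knockdown and 51.2 and 52.1% after Zfp871 knockdown, so the knockdowns lay on opposite sides of control (28.4 points between them, likelihood ratio adjusted p = 1.47e-10). The quasi-likelihood test, limma and DESeq2 called neither Spag9 nor any other short exon between the knockdowns. Their lowest adjusted p over short exons were 0.834, 0.413 and 0.479.

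Fewer short exons were higher than control. Numa1, which organises spindle poles, had its 42-nt exon at 76.8 and 70% in control, 85.8 and 90.4% after Srrm4 knockdown and 71.4 and 68.1% after Zfp871 knockdown. Srrm4 libraries lay above all others (14.7 points, adjusted p of 0.837 in the quasi-likelihood test, 0.377 in limma, 0.672 in DESeq2 and 0.0042 in the likelihood ratio test). The 45-nt exon of the helicase gene Ddx31 stood at 74.7 and 87.5% in control, 100 and 93% after Srrm4 knockdown and 93.1 and 93.1% after Zfp871 knockdown, while the control of the first experiment stood at 100%. Numb, an endocytic adaptor and Notch inhibitor, had its 33-nt exon at 25.2 and 34.9% in control, 24 and 36.2% after Srrm4 knockdown and 46.9 and 43.8% after Zfp871 knockdown.

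Splicing regulators carry short alternative exons of their own, and 19 were tested in the second experiment. After Srrm4 knockdown 2 were lower and 0 higher, and after Zfp871 knockdown 3 lower and 1 higher, beside 4.49 and 2.31%, and 5.94 and 1.52%, of all tested short exons. Srrm1, a splicing coactivator related to Srrm4, had its 42-nt exon at 78.5 and 71.8% in control, 63.4 and 57.3% after Srrm4 knockdown and 63.4 and 57.9% after Zfp871 knockdown, from 885 reads or more. The knockdowns overlapped each other and lay below control (likelihood ratio adjusted p of 0.0455 and 0.0691). The adjusted p was 0.837 and 0.869 in the quasi-likelihood test and 0.518 and 0.6 in limma. Ptbp2, the neuronal polypyrimidine tract binding protein, had its 34-nt exon, whose skipping is known to send the transcript to decay, at 90.9 and 88.2% in control, 92.1 and 92.7% after Srrm4 knockdown and 79.3 and 75.2% after Zfp871 knockdown. Ptbp2 transcripts were at 147 and 170 CPM in control, 130 and 179 after Srrm4 knockdown and 93 and 99.1 after Zfp871 knockdown (Zfp871 log2 fold change -0.73, adjusted p = 0.0786, edgeR quasi-likelihood test). The matching 34-nt exon of Rod1 (Ptbp3) stood at 22.4 and 29.1%, 27.4 and 33.3%, and 19 and 18.8%, with control and Srrm4 libraries overlapping. Elavl2, a neuronal RNA-binding protein, had its 39-nt exon at 34.8 and 30.3% in control, 23.9 and 20.1% after Srrm4 knockdown and 33.7 and 28.7% after Zfp871 knockdown. The 40-nt exon of Rbfox2 stood at 90.6 and 90.4%, 91.9 and 91%, and 84.7 and 84.6%, and its 51-nt exon at 67 and 72.1%, 78.4 and 78.6%, and 81.3 and 79.7%. For both, the Zfp871 libraries lay apart from control, below it for the former and above it for the latter. The Srrm4 libraries lay above control for both, by 0.925 points for the 40-nt exon. The 48-nt exon of Rbms3 stood at 61.6 and 63%, 52.9 and 59.4%, and 56.2 and 43.3%. Those of Rbms1 (48 nt), Tia1 (33 nt), Celf5 (49 nt) and the 51-nt exon of Rbms3 differed from control by less than 10 points in both knockdowns. In the first experiment the 36-nt exon of Mbnl2 stood at 8.07% in control, 12% after Mbnl knockdown and 34.5% after Nacc1 knockdown. The 36-nt exon of Mbnl1 stood at 88.7, 91.5 and 98.8%. Over the 25 usable exons of this list, 0 were lower and 0 higher after Mbnl knockdown and 0 lower and 1 higher after Nacc1 knockdown.

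With 1 library a group, the first experiment allows no test of conditions. A short exon was counted there where PSI differed by 20 points or more and the 95% exact (Clopper-Pearson) intervals of the 2 libraries did not overlap. Such intervals cover counting error only, and reads are not independent molecules. After Mbnl1 and Mbnl2 knockdown 24 of 2496 short exons were lower (0.962%, against 0.333% of all lengths) and 15 higher (0.601% against 0.204%). After Nacc1 knockdown 20 were lower (0.801% against 0.37%) and 11 higher (0.441% against 0.126%). Exons of 16 to 27 nt had larger shares, with 2.78% lower and 1.16% higher for Mbnl and 3.25 and 0.464% for Nacc1. Those of 52 to 75 nt had 0.376 and 0.263%, and 0.395 and 0.15%. Among short exons with intermediate control PSI the lower shares were 4.8% of 458 for Mbnl, against 2.1% of all lengths, and 4.4% for Nacc1, against 2.3%. At 16 to 27 nt they were 6.4 and 7.9%. The median difference over all usable short exons was 0 points in both knockdowns.

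Several of the widest differences after Mbnl knockdown were in exons with a PSI over 60% in control and under 40% after knockdown. Of 56 short exons in microtubule and motor genes, 3 were lower and 0 higher, against 0.962 and 0.601% of all usable short exons. The Numa1 exon stood at 70.7% in control (interval 66.7 to 74.2%, 581 reads), 8.95% after Mbnl knockdown (6.41 to 12%, 438 reads) and 19.3% after Nacc1 knockdown (16.2 to 22.7%, 586 reads). The others, chosen after their values were seen, were the 42-nt exon of the kinesin Kif1b, at 41.9, 8.81 and 11.2%, and the 39-nt exon of the kinesin Kif13a, at 39.8, 0.753 and 6.59%, in the same order of libraries. Mdm1, a microtubule-binding protein of centrioles, had its 30-nt exon at 70.4% in control (66.4 to 74%), 14.9% after Mbnl knockdown (11 to 19.5%) and 36% after Nacc1 knockdown (31.7 to 40.3%). Its 3 libraries were apart from each other. Tbc1d23, which captures endosomal vesicles at the trans-Golgi, had its 45-nt exon at 87.7, 37.5 and 32.3%, with both knockdown intervals overlapping. Strada, a pseudokinase that activates the kinase Lkb1, had its 29-nt exon at 63% in control, 13.7% after Mbnl knockdown and 17% after Nacc1 knockdown. Arfgap1 stood at 64.7, 20.5 and 22.9%.

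Other exons were lowest in the Mbnl knockdown. The 42-nt exon of Bcas1 stood at 83.2% in control (75.2 to 89.9%), 31.4% after Mbnl knockdown (22.2 to 42%) and 66.4% after Nacc1 knockdown (56.5 to 75.8%). The 39-nt exon of Lrp8, a Reelin receptor, stood at 67.5% (61.8 to 73.1%), 25.7% (19.5 to 32.6%) and 51.4% (43.4 to 58.9%). St3gal3, a sialyltransferase, had its 48-nt exon at 89, 38.1 and 66.7%, from 58 to 69 reads. In these 3 genes the Nacc1 value lay between the Mbnl and control libraries. The opposite direction was seen in Cadm1, a synaptic adhesion molecule, whose 33-nt exon stood at 43.8% in control (40.6 to 47.1%), 77.4% after Mbnl knockdown (73.8 to 80.6%) and 80.5% after Nacc1 knockdown (77.8 to 82.9%). Exoc1, an exocyst subunit, had its 45-nt exon at 66.7, 90.7 and 97.2%. The 37-nt exon of Dnm1 had the widest upward difference, from 47.6 to 100%, on 23 and 27 reads.

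In the Nacc1 knockdown the Mbnl1 transcript was at 82.7 CPM against 124 in control, and Mbnl2 at 65.6 against 65.7. The 2 knockdowns share 1 control library, so each shows its own value here, and the part of the lower Mbnl1 level was not tested. The widest difference after Nacc1 knockdown was in the 48-nt exon of Uap1, the enzyme that makes UDP-N-acetylglucosamine, at 86.5% in control (83.8 to 89%, 677 reads), 88.5% after Mbnl knockdown (85.6 to 91.1%) and 28.1% after Nacc1 knockdown (24.1 to 32.6%, 447 reads). Control and Mbnl intervals overlapped and the Nacc1 interval lay far below both. Uap1 transcripts were at 76.8, 70.8 and 61 CPM. Itpr1, a calcium channel of the endoplasmic reticulum, had its 36-nt exon at 17.8% in control (10.8 to 27.8%), 22.5% after Mbnl knockdown (14 to 34.2%) and 54.9% after Nacc1 knockdown (44.2 to 65.2%). Llgl2, a polarity protein, had its 48-nt exon at 74.1, 48.1 and 20.1% on 18 to 29 reads, and Lrmp and Creb1 stood higher than control in both knockdowns on 16 to 33 reads, so these 3 rest on few reads. Epb4.1l3, lower in the Srrm4 knockdown, also stood lower after Nacc1 knockdown at 35.3% (31 to 40%) against 52.4% in control (48.4 to 56.4%) and 54.8% after Mbnl knockdown, short of the 20 points of the size rule.

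**Figure D4:**
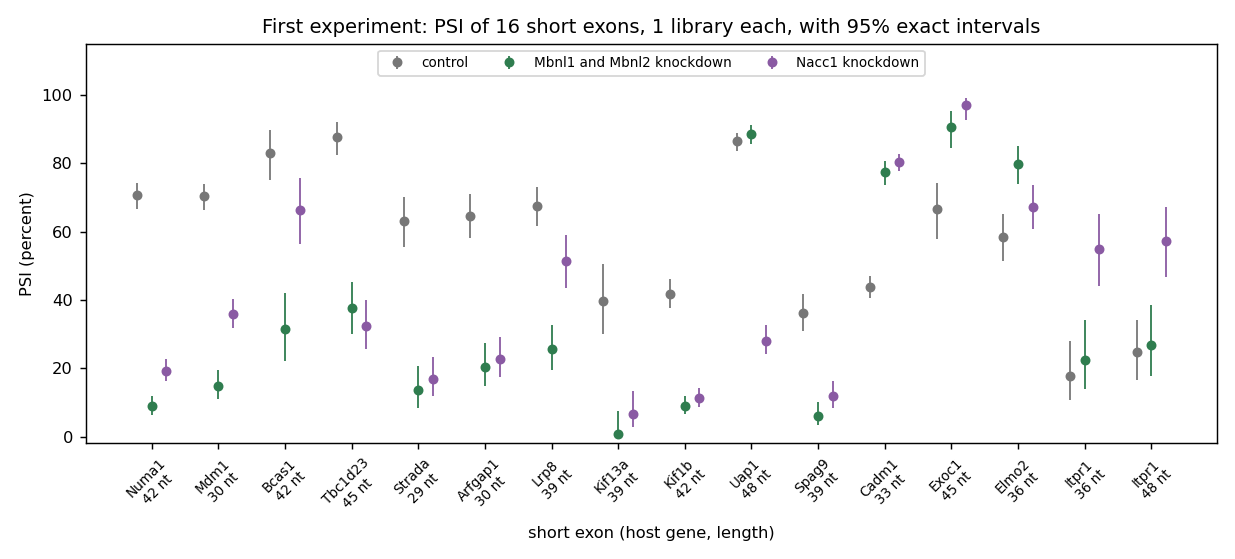
PSI (percent) of 16 short exons in the 3 libraries of the first experiment, with 95% exact intervals for counting error; grey is control, green Mbnl1 and Mbnl2 knockdown and purple Nacc1 knockdown, 1 library each. Numa1, Mdm1, Tbc1d23, Strada and Arfgap1 lie below control in both knockdowns, Uap1 in the Nacc1 but not the Mbnl knockdown, and Cadm1 and Exoc1 above control in both.

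The experiments have separate controls, and their overlaps were counted over exons usable in both, which leaves 23 Mbnl-lower, 13 Mbnl-higher and 21 Zfp871-higher exons. Of the short exons lower after Srrm4 knockdown, 6 were higher after Mbnl knockdown, which is 8.8% of 68 and 46.2% of 13: Dock9, Elmo2, Exoc1, Sh3pxd2a, Slc25a25 and Tjap1. Elmo2 stood at 58.6% in the control of the first experiment (51.5 to 65.1%) and 79.9% after Mbnl knockdown (73.9 to 85.2%), whereas in the second experiment it stood at 71.7 and 71.5% in control and 44.5 and 31.4% after Srrm4 knockdown. Only 2 of the Srrm4-lower exons, Arfgap1 and Strada, were also lower after Mbnl knockdown (2.9% of 68, 8.7% of 23). The Zfp871 knockdown shared 9 lower exons with the Mbnl knockdown (10.0% of 90, 39.1% of 23) and 8 with the Nacc1 knockdown (8.9% of 90, 40.0% of 20). In the opposite direction, 4 Zfp871-lower exons were higher after Mbnl knockdown (4.4% of 90, 30.8% of 13). These were Dock9, Elmo2, Sh3pxd2a and Tjap1, all named above for Srrm4. After Nacc1 knockdown, 3 Zfp871-lower exons were higher (3.3% of 90, 27.3% of 11). For scale, 0.962% of all usable short exons were lower and 0.601% higher after Mbnl knockdown, and 0.801% lower and 0.441% higher after Nacc1 knockdown. Of tested short exons, 4.49 and 5.94% were lower after Srrm4 and Zfp871 knockdown. Short exons with intermediate PSI in their own control held 22 of all 24 Mbnl-lower and all 20 Nacc1-lower exons, and their shares were larger. These were 4.8% lower and 2.6% higher for Mbnl, 4.4% lower and 2.2% higher for Nacc1, and 14.7 and 18.6% lower for Srrm4 and Zfp871. The overlaps were not tested. Arfgap1 and Strada were lower in all 4 knockdowns, with Strada at 68.6 and 66.1% in the second control, 47.3 and 49.5% after Srrm4 knockdown and 40.4 and 39.9% after Zfp871 knockdown. Numa1 was higher after Srrm4 knockdown and lower after Mbnl and Nacc1 knockdown. Spag9 and Eml4 were higher after Zfp871 knockdown and lower after Mbnl and Nacc1 knockdown, with Spag9 at 36.2, 6.07 and 11.9% in the 3 libraries of the first experiment. Names in these overlaps outside the naming rule were chosen after their values were seen.

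**Figure D5:**
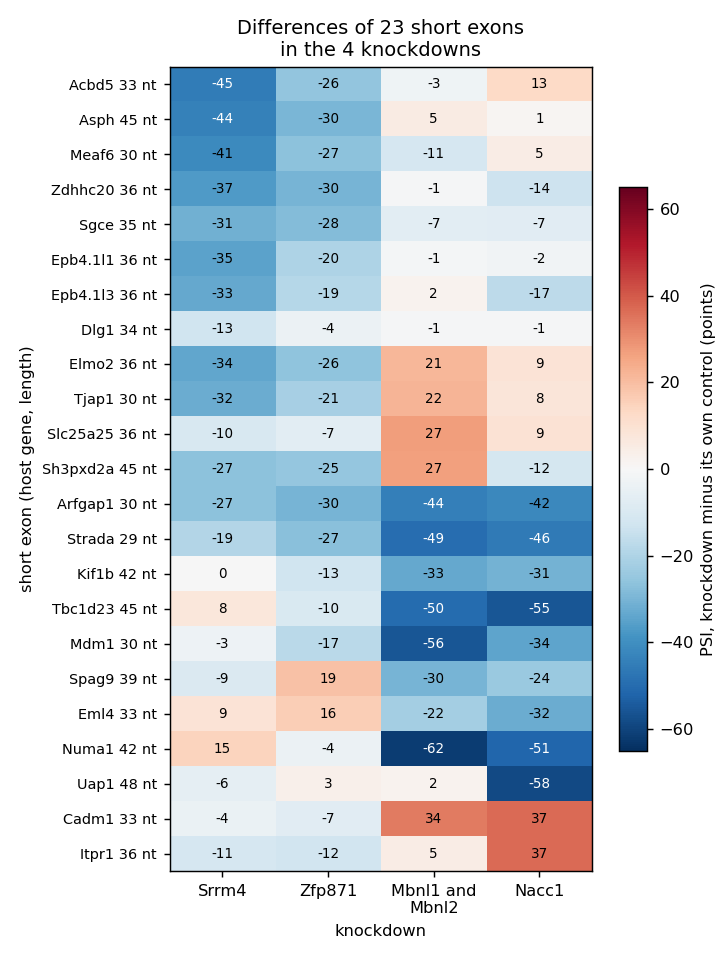
Difference in PSI (points, knockdown minus its own control, printed in each cell) of 23 short exons in the 4 knockdowns; blue is lower and red higher, with means of 2 libraries a group for Srrm4 and Zfp871 and 1 library each for the others. Arfgap1 and Strada are blue in every column, Elmo2 and Sh3pxd2a change colour between the Srrm4 and Mbnl columns, and Uap1 is deep blue in the Nacc1 column and pale in the others.

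The exons counted in each knockdown were then compared in properties that the counting rules did not use. Length was divisible by 3 for 75% of the 68 Srrm4-lower exons and 54.3% of the 35 higher ones, against 49.4% of tested short exons and 61.0% of those with intermediate control PSI. The shares were 70.0% of 90 lower and 78.3% of 23 higher exons for Zfp871, 83.3% of 24 and 80.0% of 15 for Mbnl, and 90% of 20 and 81.8% of 11 for Nacc1. Coding exons made up 84.6% of matched Srrm4-lower exons, 76.4% of Zfp871-lower, 91.3% of Mbnl-lower and 90% of Nacc1-lower exons, against 78.6% of tested short exons. The share was 66.7% of Srrm4-higher, 95% of Zfp871-higher, 80% of Mbnl-higher and 81.8% of Nacc1-higher exons, and 72.4% of tested exons with intermediate control PSI. Median introns, upstream and then downstream, were 1266 and 1594 nt for Srrm4-lower, 1818 and 3334 for Srrm4-higher, 1444 and 1561 for Zfp871-lower and 3317 and 5900 for Zfp871-higher exons. In the first experiment they were 1546 and 2235 nt for Mbnl-lower, 2498 and 1674 for Mbnl-higher, 3671 and 2478 for Nacc1-lower and 6731 and 5603 for Nacc1-higher exons. Tested short exons had 1749 and 1976 nt, so the sets lay on both sides.

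These 4-base words were searched on the transcribed strand of each matched exon, with overlapping matches counted. At least 1 was present in 36.9% of 2891 short exons. It was present in 26.1% of Mbnl-lower (6 of 23) and 33.3% of Mbnl-higher exons (5 of 15), 45% of Nacc1-lower (9 of 20), 40.0% of Srrm4-lower (26 of 65) and 38.2% of Zfp871-lower exons (34 of 89). Of the printed exons counted after Mbnl knockdown, Numa1, Tbc1d23, Strada, Arfgap1, Cadm1 and Spag9 hold none and Elmo2 holds 1. The Mdm1 exon, not printed, also holds 1. The flanking introns were not analysed here. Median GC content was 47.9% over short exons and 50% in the Srrm4-lower and Mbnl-lower sets.

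Host gene levels were tested separately from the exons. Of 1275 genes with a tested short exon, 1258 passed the expression filter, of which 9 rose and 54 fell after Srrm4 knockdown (1.41 and 3.29% of all genes) and 5 rose and 43 fell after Zfp871 knockdown (0.751 and 2.14%), by edgeR's quasi-likelihood test at an adjusted p under 0.05. Of 66 tested host genes of Srrm4-lower exons, 0 rose and 4 fell, and of 86 hosts of Zfp871-lower exons, 0 rose and 3 fell. With the library letter as a block, 476 host genes passed for Srrm4 and 431 for Zfp871, against 63 and 48 without it. The shares of all genes above are without the block. Those with it are not given here, so the larger counts are not read as particular to host genes. Gene levels of same-letter libraries deviated together (r from 0.637 to 0.749 over the 3 pairs of groups), and no label says what a letter marks. Without the block the counts changed when single libraries were left out: for Srrm4 3 passed without control a, 20 without Srrm4 a and 0 without any other library, and for Zfp871 27 passed without Srrm4 a, 24 without Srrm4 b, 4 without control a and 0 without control b or either Zfp871 library. Epb4.1l1 was at 320 and 371 CPM in control and 321 and 382 CPM after Srrm4 knockdown (log2 fold change 0.03, adjusted p = 0.922), beside its lower exon. Acbd5 was at 64.9 and 61.1 CPM and then 65.2 and 72.4 CPM (0.13, adjusted p = 0.558). Sh3pxd2a fell (log2 fold change -0.76, adjusted p = 0.0415) after Srrm4 knockdown, and Ank3 fell (-0.76, adjusted p = 0.0243) after Zfp871 knockdown. Sh3pxd2a missed the threshold without any single library (adjusted p from 0.0736 to 0.23), and Ank3 missed it without either control or either Zfp871 library (0.0668 to 0.247).

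The authors' deposited tables mark differentially spliced events. Among short exons these tables mark 43 for Srrm4 (35 lower), 45 for Zfp871 (40 lower), 73 for Mbnl (48 lower) and 74 for Nacc1 (44 lower). Short exons with an entry, marked as differential or not, numbered 2488, 2472, 2457 and 2453 in that order. In all, 311, 251, 590 and 632 were marked. The number with an entry in all is not given here, so the shares are not compared. The rules used here counted all 43 and all 45 of the marked exons of the second experiment, among 103 for Srrm4 and 113 for Zfp871. In the first experiment, where 20 points and intervals apart were required, they counted 29 of 73 and 23 of 74, among 39 for Mbnl and 31 for Nacc1. Marks and rules rest on the same libraries, so the shared exons are no independent check.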

How the data were processed

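RNA-seq of 9 libraries was deposited as vast-tools splicing tables and gene tables on mm9. The deposited values used are counts: inclusion and exclusion reads per event, which need not be whole and were rounded here, and raw read counts per gene. CASAVA 1.8 and edgeR are named per the submitters' processing notes, with no role. The version of vast-tools was not stated, and 29 other per-sample columns were not used.

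PSI was inclusion over inclusion plus exclusion reads, for events with 10 or more reads in every library of an experiment. The second experiment was fitted over all cassette exons with a PSI of 2 to 98% in at least 1 of its 6 libraries, with edgeR 4.0.16 (R 4.3.3): a coefficient per library, an inclusion coefficient per group, the quasi-likelihood test without abundance trend, Benjamini-Hochberg adjustment over 20266 exons and 10 points or more. Likelihood ratio, limma 3.58.1 (logit PSI, 1 read added to each side) and DESeq2 1.42.0 fits, other filters and left-out libraries were alternatives. Gene counts were tested with edgeR (filterByExpr, TMM). The first experiment, with 1 library a group, was described by exact binomial intervals (SciPy 1.17.1). Scripts were tested on simulated data.

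Exons named in the text were drawn from those called by the main test, the 10 widest differences in each knockdown, the 10 widest shared by 2 or more knockdowns, those of splicing regulators and of genes known for short alternative exons, and the widest in each functional list. Not all of these are described, and 1 gene is not reported here. Members, lists and rules were chosen with earlier results of these data known.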

Additional observations from a re-analysis of the deposited data

How the results depend on the processing

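No result changed direction. The choice of test moved the exon counts most. Short exons called after Srrm4 knockdown numbered 0 in the main test, 42 in the likelihood ratio test, 15 in DESeq2, 16 in limma and 5 with an abundance trend (added after seeing the data), and 0 to 42 with 1 library left out (0 in the quasi-likelihood test, 29 to 42 in the likelihood ratio test). Zfp871 gave 34 in the likelihood ratio test and 0 to 33 with 1 library left out, and Zfp871 against Srrm4 24 and 0 to 27. No label says what the letters a and b mark: deviations of same-letter libraries correlated at 0.0899 to 0.138 for PSI and 0.637 to 0.749 for gene levels. With the letter as a replicate block the quasi-likelihood test still called 0 exons and the likelihood ratio test 53, 49 and 35. Host genes then went from 63 to 476 for Srrm4 and from 48 to 431 for Zfp871. Shares of all genes with the block or in DESeq2 are not given here, so these counts are not read as particular to host genes. Host genes numbered 221 and 164 in DESeq2, 0 and 22 in the 4 libraries of each comparison, and 0 to 20 and 0 to 27 with 1 library left out. With 5 or 20 points required, exons apart from control numbered 208 or 31 for Srrm4 and 218 or 33 for Zfp871, and with 10 or 30 points in the first experiment 66 or 19 for Mbnl and 64 or 16 for Nacc1. The Srrm4 median was -0.05 points with 20 reads required and -0.21 without control library b. The Zfp871 median was 0 without the PSI filter and from -0.78 (without control library b) to -0.12 (without Zfp871 library b) with 1 library left out. The Mbnl median was -0.66 with the PSI filter. With that filter the control shares over 90, from 10 to 90 and under 10 were 43.7, 32.6 and 23.7% in the first experiment and 49.6, 27.4 and 23% in the second. The cause of these shifts was not tested beyond the number of exons or libraries each setting removes. Leaving out 1 of 2 libraries assumes that the lone library varies like the other groups. Named exons on few reads (Dock9, Dnm1, Llgl2, Lrmp, Creb1, Macrod1, Slc43a1) are limited by depth.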

Other observations

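Neighbouring short exons of 1 gene did not always go together, in genes chosen after their values were seen. Prune2 held 3 usable short exons on chromosome 19. Its 36-nt exon stood at 30.7% in the control of the first experiment, 6.1% after Mbnl knockdown and 7.11% after Nacc1 knockdown, while its 39-nt exon stood at 42.6, 63.3 and 61.6% and its 48-nt exon at 52.5, 40.3 and 25.5%. The former was lower and the 39-nt exon higher in both knockdowns. In Itpr1, 5 short exons were usable, and the 36-nt and 48-nt exons were higher after Nacc1 knockdown (the latter at 24.9% in control and 57.4%), whereas the 45-nt exon stood at 71.4% in control and 76.4% after Nacc1 knockdown. In Meaf6, the 30-nt and 34-nt exons were both lower after Srrm4 knockdown, the latter at 85.2 and 91% in control and 63.9 and 63.2% after knockdown, and the 46-nt exon stayed at 98.4% or more in every library of the second experiment.

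Several exons that were nearly always included in control, also chosen after their values were seen, had a lower PSI in 1 or more knockdowns. The 33-nt exon of Wdr35, a ciliary transport protein, was at 100 and 100% in control, 68.1 and 74% after Srrm4 knockdown and 84.1 and 96.5% after Zfp871 knockdown. Napb, a SNARE adaptor, had its 47-nt exon at 97.3 and 98% in control, 76.2 and 69.7% after Srrm4 knockdown and 87.6 and 87.7% after Zfp871 knockdown. After Mbnl knockdown the 36-nt exon of Mta1, a chromatin remodelling subunit, stood at 66.9% against 99% in control, and the 39-nt exon of Tmem63b, an ion channel, at 71.2% against 100%.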
